A study of Mus musculus with 38 samples.

Results

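The genes described here are 10 markers of CD206-high perivascular macrophages: Mrc1, Lyve1, Stab1, Cd163, Folr2, Timd4, Ednrb, Fcna, F13a1 and Cbr2. They were taken by symbol from the 43346 genes of the deposited count table, each matched a single Ensembl gene, and all 10 were among the 14095 genes with enough reads to be tested. The RNA came from lung macrophages of untreated C57Bl/6 mice aged 8 to 10 weeks, isolated by flow cytometry as 4 populations with 3 libraries each, called replicates A, B and C. The 3 interstitial macrophage populations were enriched for MerTK and then sorted as live CD64+ CD11b+ cells without CD24, CD43, Siglec F and Ly6G and without the lymphocyte markers B220, CD3 and NK1.1. IM1 was MHC class II low and CD206 high, IM2 was high for both, and IM3 was MHC class II high and CD206 low. The surface-marker label also describes IM1 as CD11c low and IM3 as CD11c positive. Alveolar macrophages (AM) were sorted as CD11c+ Siglec F+ cells without CD11b, CD103, Gr1 and lymphocyte markers. Because CD206 and MHC class II set the interstitial gates, Mrc1 and the MHC class II genes are not independent of the sort. About 50000 cells gave the RNA of a library, so a lower level in a sorted population can come from fewer expressing cells or from less RNA per cell, and these cannot be told apart.

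Resident macrophages that lie along blood vessels are commonly recognised by a shared set of surface receptors and secreted proteins. The receptors clear material from the tissue: mannosylated glycoproteins, hyaluronan, haemoglobin complexes, modified lipoproteins and dying cells. The secreted products act in clotting and in innate recognition, and several of these markers are shared with other cells, LYVE-1 with lymphatic endothelium and carbonyl reductase 2 with airway club cells.

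The 12 libraries held 11818981 to 15758326 reads assigned to genes, and 3 counts, the limit that a count of 0 allows, corresponded to 0.19 to 0.254 CPM (assigned reads scaled to a common total). Such limits and the intervals below cover counting error only. IM1 replicate A was the shallowest library, with 14.78% multimapping reads and 0.7% of counts on Rpl and Rps genes, against 11.8% and 11.98%, and 0.4% and 0.37%, in IM1 replicates B and C. Markers of the sorted cells followed the labels: 8 interstitial macrophage genes summed to 19000 to 46100 CPM over the 9 interstitial libraries, against 15.4 to 21.4 CPM in AM. The 9 alveolar macrophage genes summed to 70.0 to 281 CPM over the 9 interstitial libraries, against 47000 to 54900 CPM in AM. The T cell receptor gene Trac reached 4070 CPM in IM1 replicate A, 1130 CPM in IM2 replicate B and 645 CPM in IM3 replicate B, and at most 0.939 CPM in any other library, while the T cell genes Cd3e, Cd3d and Cd3g stayed at or under 0.62 CPM in every library. The labels do not say whether replicates are separate animals, so the spread behind each p-value is that between these libraries and may be technical.

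The receptors for proteins and glycans came in 2 kinds: Mrc1 and Stab1 stayed high in IM3, and Lyve1 and Cd163 did not. Levels below are CPM scaled by the trimmed mean of M values (TMM), listed for replicates A, B and C. Mrc1 (mm10, chromosome 2, 14229392 to 14332057, plus strand) encodes CD206, the endocytic mannose receptor on which the cells were gated. It stood at 1756, 2283 and 2407 CPM in IM1, 2015, 2195 and 2402 CPM in IM2, 698.9, 769.3 and 770.5 CPM in IM3 and 1026, 966.9 and 1006 CPM in AM. The CD206-high gates therefore held 2.88 times (IM1) and 2.95 times (IM2) the Mrc1 of IM3, with every IM1 and IM2 library above every IM3 library, and the CD206-low cells were not Mrc1-negative. The log2 fold change was 1.53 ± 0.13 for IM1 against IM3 and 1.56 ± 0.13 for IM2 against IM3 (SE; edgeR adjusted p 5.58e-07 and 1.08e-06). Stab1 (chromosome 14, 31139013 to 31168641, minus strand) encodes stabilin-1, a scavenger receptor for modified lipoproteins and other extracellular cargo. It stood at 1891, 3146 and 2053 CPM in IM1, 2318, 2359 and 2250 CPM in IM2, 834.3, 711.3 and 864.1 CPM in IM3, and 0.701, 1.90 and 1.84 CPM in AM. Its difference from IM3 was of the size of that of Mrc1, and IM1 replicate B was the highest library, but unlike Mrc1 it was near 0 in AM. IM1 exceeded IM3 by a log2 fold change of 1.56 ± 0.22 (edgeR adjusted p 7.33e-05) and IM2 exceeded it by 1.52 ± 0.22 (0.000167).

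Lyve1 (chromosome 7, 110850607 to 110862953, minus strand), a receptor for the matrix sugar hyaluronan, stood at 1014, 458.8 and 485.5 CPM in IM1, 477.0, 317.7 and 310.9 CPM in IM2 and 6.95, 10.34 and 6.77 CPM in IM3. AM held a single Lyve1 read over all 3 libraries. IM1 replicate A carried clearly more Lyve1 than the other IM1 libraries, and every IM1 and IM2 library was far above every IM3 library. The log2 fold change was 6.35 ± 0.35 for IM1 against IM3 (edgeR adjusted p 5.86e-09) and 5.52 ± 0.33 for IM2 against IM3 (4.15e-08). Cd163 (chromosome 6, 124304651 to 124330527, plus strand), which takes up haemoglobin bound to haptoglobin, stood at 898.2, 965.0 and 1007 CPM in IM1, 921.7, 970.0 and 861.8 CPM in IM2, 85.39, 78.47 and 70.78 CPM in IM3, and 0.490, 0.632 and 0.516 CPM in AM. Its replicates lay close together in every population, and its IM3 level was 8.17% of that in IM1. IM1 exceeded IM3 by a log2 fold change of 3.61 ± 0.13 (edgeR adjusted p 1.82e-10) and IM2 exceeded it by 3.55 ± 0.13 (2.24e-10).

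The other receptors, for folate, phosphatidylserine and endothelin, were all low in IM3. Folr2 (chromosome 7, 101839990 to 101845331, minus strand) encodes folate receptor beta, which is anchored to the cell surface by a lipid. It stood at 1982, 807.8 and 934.6 CPM in IM1, 1093, 549.5 and 652.9 CPM in IM2, 19.86, 24.93 and 27.88 CPM in IM3, and 0.350, 0 and 0.442 CPM in AM. Replicate A was the highest library in both IM1 and IM2 and the lowest in IM3. Its log2 fold change was 5.68 ± 0.41 for IM1 against IM3 (edgeR adjusted p 7.56e-08) and 4.98 ± 0.39 for IM2 against IM3 (5.5e-07). Timd4 (chromosome 11, 46810800 to 46844332, plus strand) encodes TIM-4, a phosphatidylserine receptor used to bind apoptotic cells. It stood at 113.2, 65.0 and 88.17 CPM in IM1, 66.25, 44.54 and 70.26 CPM in IM2 and 2.58, 2.49 and 3.18 CPM in IM3, and AM held a single read. Timd4 had the lowest CPM of the 10 genes in IM1 and IM2, and each of its IM3 libraries still held 34 to 47 counts, above the limit that 0 counts allow. IM1 exceeded IM3 by a log2 fold change of 5.0 ± 0.26 (edgeR adjusted p 4.42e-09) and IM2 exceeded it by 4.45 ± 0.26 (3.24e-08). Ednrb (chromosome 14, 103814625 to 103844173, minus strand) encodes the G-protein-coupled endothelin receptor type B. It stood at 279.5, 159.1 and 204.5 CPM in IM1, 132.6, 106.7 and 132.7 CPM in IM2 and 1.39, 3.30 and 1.83 CPM in IM3, and no read was counted in AM. It showed the largest fold difference of the 10 genes between each CD206-high population and IM3, where each library held 21 to 45 counts. The log2 fold change was 6.63 ± 0.31 for IM1 against IM3 (edgeR adjusted p 6.26e-09). For IM2 against IM3 it was 5.84 ± 0.3 (edgeR adjusted p 4.15e-08). The SE ranges of Lyve1, the next largest, overlapped these.

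The secreted proteins and the enzyme behaved like the folate receptor rather than like CD206, with IM3 at a few percent of IM1. Fcna (chromosome 2, 25624666 to 25628030, minus strand) encodes ficolin-A, a secreted lectin that starts the lectin pathway of complement. It stood at 414.7, 170.7 and 209.1 CPM in IM1, 187.8, 81.99 and 121.3 CPM in IM2, 3.91, 7.33 and 5.62 CPM in IM3, and 0.561, 0.281 and 0.442 CPM in AM. IM1 replicate A had 2.18 times the ficolin-A RNA of the mean of replicates B and C. IM1 exceeded IM3 by a log2 fold change of 5.56 ± 0.39 (edgeR adjusted p 6.6e-08) and IM2 exceeded it by 4.54 ± 0.38 (8.59e-07). F13a1 (chromosome 13, 36867178 to 37050244, minus strand), the catalytic A subunit of coagulation factor XIII, which crosslinks fibrin, stood at 2184, 2472 and 3224 CPM in IM1, 2263, 1907 and 2585 CPM in IM2, 76.19, 85.29 and 96.22 CPM in IM3, and 0.140, 0.281 and 0.0737 CPM in AM. It had the highest CPM of the 10 genes in IM1, where replicate A was its lowest library. The log2 fold change was 4.93 ± 0.2 for IM1 against IM3 (edgeR adjusted p 4.21e-10) and 4.71 ± 0.2 for IM2 against IM3 (1.43e-09). Cbr2 (chromosome 11, 120729489 to 120732114, minus strand), an NADPH-dependent carbonyl reductase of mitochondria, stood at 1293, 537.4 and 726.5 CPM in IM1, 618.4, 360.0 and 473.2 CPM in IM2, 21.18, 20.17 and 23.55 CPM in IM3, and 0.771, 1.19 and 0.737 CPM in AM. Replicate A was again the highest library in IM1 and in IM2. IM1 exceeded IM3 by a log2 fold change of 5.3 ± 0.31 (edgeR adjusted p 1.01e-08) and IM2 exceeded it by 4.48 ± 0.3 (1.37e-07).

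**Figure D1:**
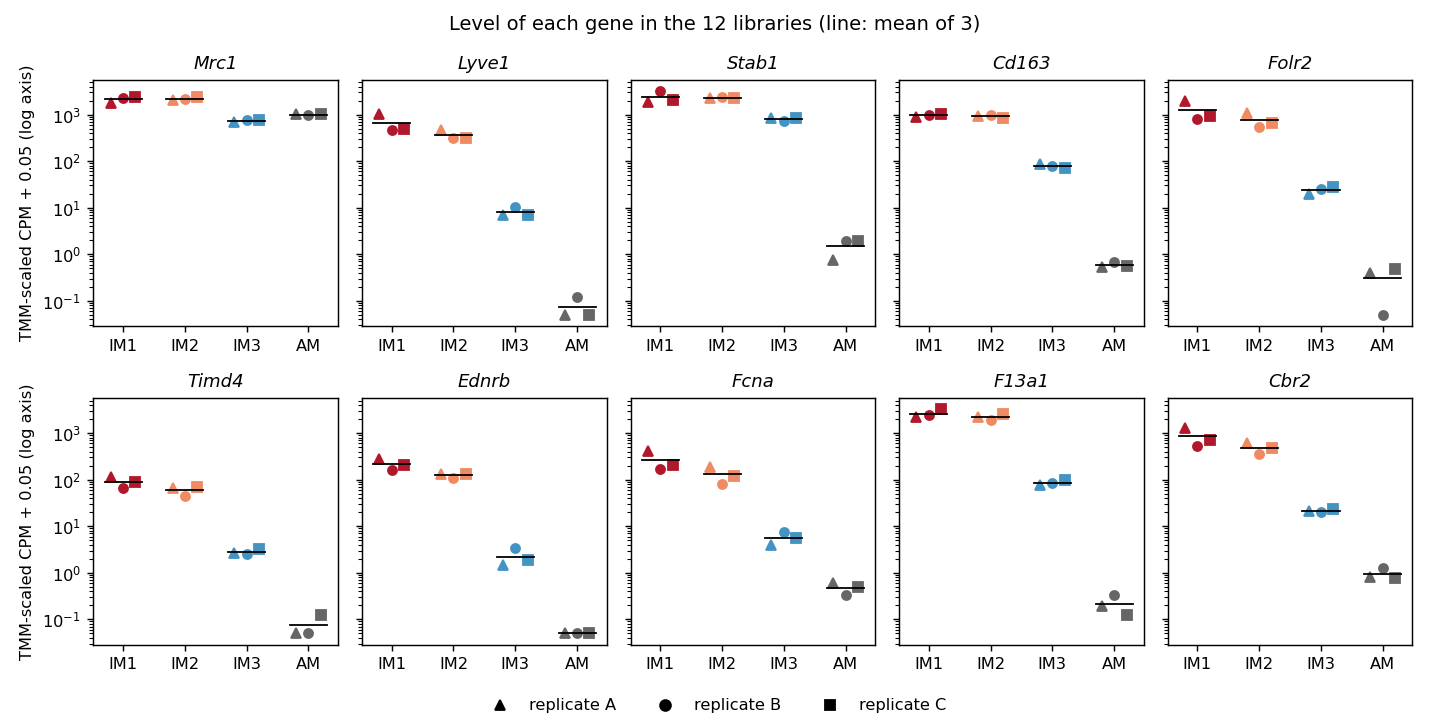
TMM-scaled CPM plus 0.05, on a log axis, of each gene in the 12 libraries, with populations along the horizontal axis, a symbol for each replicate and a line at the mean of 3. Mrc1 and Stab1 stay between 698.9 and 864.1 CPM in IM3, where the other 8 genes fall below 100 CPM, and Mrc1 alone stays high in AM.

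Against IM3, the CD206-low population, all 10 genes were higher in IM1 and all 10 in IM2 at an adjusted p under 0.05. For comparison, 12.7% of all genes tested were higher in IM1 than in IM3 by this rule, and 6.49% were higher in IM2 than in IM3. For IM1 against IM3 the median log2 fold change of the 10 genes was 5.15, beside 0.02 over all genes tested. For IM2 against IM3 these medians were 4.51 and 0. In both comparisons every CD206-high library exceeded every IM3 library for all 10 genes, which held for 18.9% of all genes tested for IM1 and for 15.7% for IM2. Both comparisons use the same IM3 libraries. The 10 genes were chosen with earlier results of these data known, and Mrc1 encodes the gated CD206, so these counts are a description only. The counts of 10 were the same under every other processing setting tried, including the removal of IM1 replicate A and of all 4 replicate A libraries.

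The genes formed a range rather than one step. The mean level in IM3 was 34.7% of that in IM1 for Mrc1 and 34% for Stab1. It was 8.17% for Cd163, and between 1.01% for Ednrb and 3.27% for F13a1 for the other 7 genes. Against IM2 the same values were 33.9% for Mrc1, 34.8% for Stab1, 8.52% for Cd163 and 1.75% for Ednrb to 4.56% for Timd4 for the rest. So the gene for the gated protein was among the least different of the 10.

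**Figure D2:**
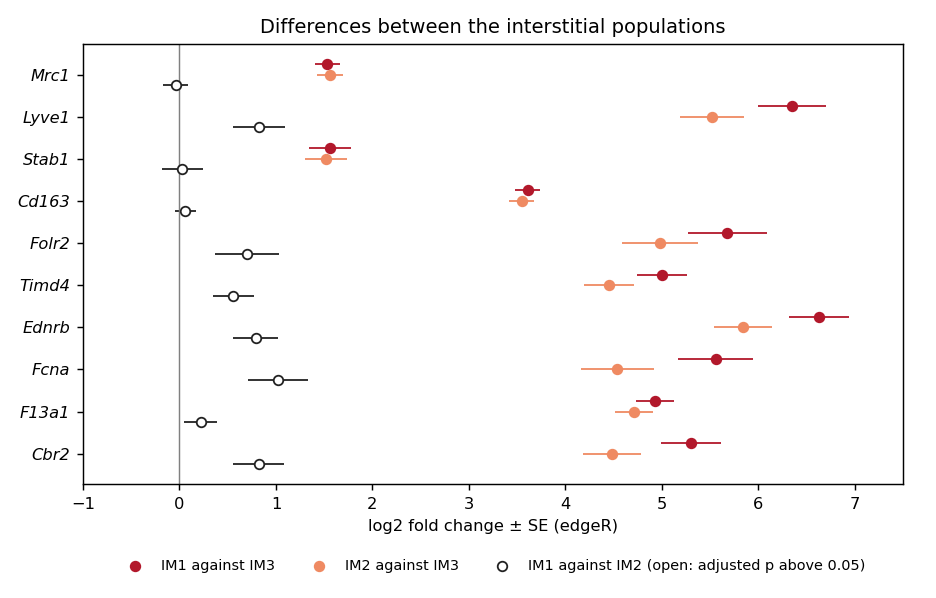
Log2 fold change with its SE from edgeR for each gene in IM1 against IM3, IM2 against IM3 and IM1 against IM2, with filled points called at an adjusted p under 0.05. Mrc1 and Stab1 lie near 1.5 against IM3, Cd163 near 3.6 and the other 7 genes between 4.45 and 6.63, while the IM1 against IM2 points run from -0.04 to 1.02.

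Within the CD206-high cells, IM1 and IM2 differ in their MHC class II gate. In the main edgeR fit, which did not pair replicates, none of the 10 genes was called between them after adjustment. Of all genes tested, 1.71% were called, 0.49% as higher in IM1. At an unadjusted p under 0.05, 5 of the 10 (Fcna, Ednrb, Cbr2, Lyve1 and Timd4) were higher in IM1, beside 8.13% of all genes. Ficolin-A had the largest fold, with a mean of 264.8 ± 131.2 CPM in IM1 and 130.4 ± 53.5 CPM in IM2 (SD, n = 3 each) and a log2 fold change of 1.02 ± 0.31 (edgeR adjusted p 0.129). Ednrb, at 214.4 ± 60.8 CPM in IM1 and 124.0 ± 15 CPM in IM2 (SD, n = 3 each), was the only one of the 10 whose libraries did not overlap, which held in this direction for 7.21% of all genes. Its log2 fold change was 0.79 ± 0.23 (edgeR adjusted p 0.109). The values were 0.82 ± 0.27 for Lyve1, 0.82 ± 0.26 for Cbr2, 0.7 ± 0.33 for Folr2 and 0.56 ± 0.21 for Timd4. The 4 genes with the smallest values were F13a1 (0.22 ± 0.17), Cd163 (0.06 ± 0.11), Stab1 (0.03 ± 0.21) and Mrc1 (-0.04 ± 0.13), and Mrc1 and Stab1 changed sign under some settings.

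The absence of calls between IM1 and IM2 depended on single libraries, the pairing of replicates, the filter on low counts and the test. With no filter on low counts 6 of the 10 genes were called higher in IM1, limma voom with quality weights called 4, and DESeq2 called 1. With the replicate letter as a block, 2 of the 10 genes were called higher in IM1, Fcna at 1.0 ± 0.25 and Cbr2 at 0.78 ± 0.19 (log2; edgeR adjusted p 0.0457 and 0.0469). When this replicate block was fitted on IM1 and IM2 alone, 6 were called: Lyve1, Folr2, Timd4, Cbr2, Fcna and Ednrb. Without IM1 replicate B, 5 were called, and Fcna then stood at 1.26 ± 0.32 (adjusted p 0.0226). Without IM1 replicate A, none was called, and the values of Lyve1, Folr2, Cbr2 and Fcna were 0.36, 0.19, 0.39 and 0.54. Without any replicate A library, only Fcna was called, at 0.89 ± 0.18 (adjusted p 0.0293).

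The IM1 libraries differed more for 8 of the 10 genes than for the median gene, and most for 4 of them. That IM1 replicates differ in these genes was known beforehand from these data, so their ranking against all genes is a description only. The highest library over the lowest was 2.45 for Folr2, 2.43 for Fcna, 2.41 for Cbr2 and 2.21 for Lyve1, each with replicate A highest and B lowest, beside a median of 1.41 over 6650 genes with at least 20 CPM. Between 2.86% (Folr2) and 5.82% (Lyve1) of those genes had a larger ratio. Ednrb (1.76) and Timd4 (1.74) were also highest in replicate A, while Stab1 (1.66), F13a1 (1.48), Mrc1 (1.37) and Cd163 (1.12) were lowest in it. Between 20.6% (Ednrb) and 42.3% (F13a1) of genes had a larger ratio than Ednrb, Timd4, Stab1 and F13a1, and only Mrc1 and Cd163 lay below the median. Sequencing runs of 1 IM1 library differed by at most 1.21 for Folr2, Fcna, Cbr2 and Lyve1, less than the libraries did. For Cd163 the runs differed by up to 1.1, close to the 1.12 between libraries. In IM2 replicate A was again the highest for Fcna (2.29), Folr2 (1.99), Cbr2 (1.72) and Lyve1 (1.53), beside a median of 1.23 over all genes.

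Gene length moved with this difference. In IM1, the log2 ratio of replicate A to the mean of B and C had a median of 0.89 over genes under 1 kb of exonic length, 0.51 from 1 to 2 kb, 0.04 from 2 to 4 kb, -0.24 from 4 to 8 kb and -0.28 over 8 kb. In IM2 the same medians ran from 0.39 under 1 kb to -0.09 over 8 kb, and in IM3 from 0.08 to 0.02. The 3 shortest markers, Folr2 (1.08 kb, 1.19), Cbr2 (1.33 kb, 1.03) and Fcna (1.37 kb, 1.13), were above the 90th percentile of genes of their length in IM1, which was 0.97. Lyve1 was high for its length, with 1.1 at 2.61 kb, where the 90th percentile was 0.59, and so was Ednrb, with 0.62 at 4.04 kb against 0.37. The longest markers, Mrc1 (6.37 kb, -0.42) and Stab1 (10.29 kb, -0.46), lay within the range of genes of their length. With the length trend of each library removed, an alternative chosen after seeing the data, the log2 fold change of IM1 against IM2 was 0.75 for Lyve1, 0.46 for Folr2, 0.59 for Cbr2, 0.81 for Fcna and 0.87 for Ednrb, and none was called. The part of gene length in the replicate difference beyond this was not tested.

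**Figure D3:**
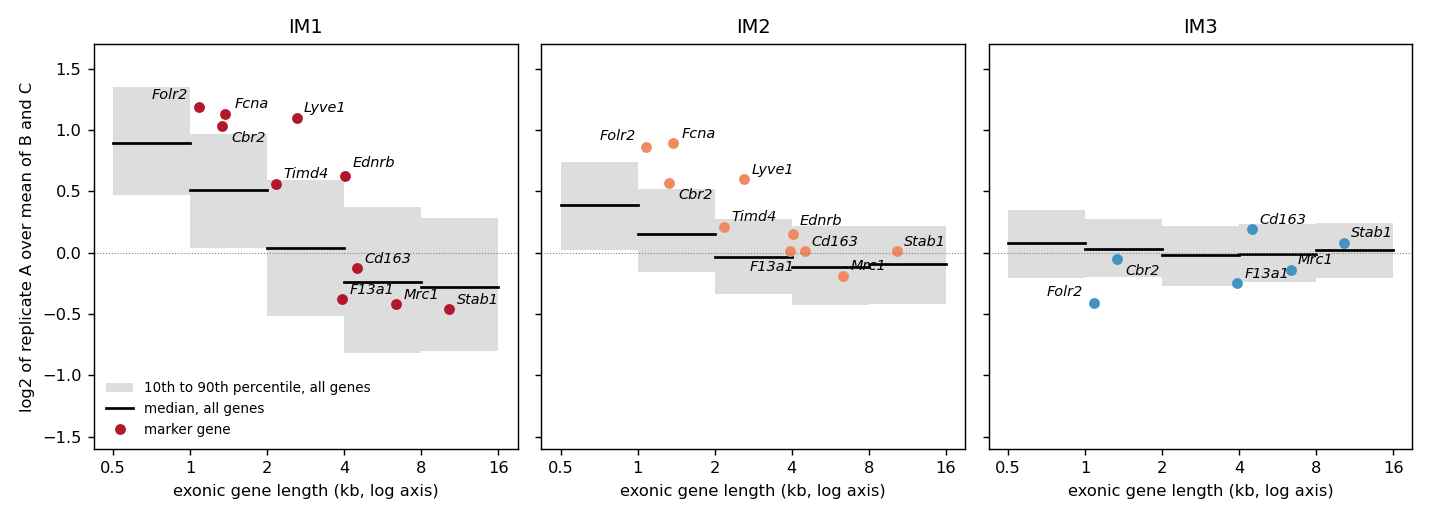
Log2 ratio of replicate A to the mean of replicates B and C against exonic gene length (kb, log axis) in IM1, IM2 and IM3, with grey boxes from the 10th to the 90th percentile and a line at the median of all genes of that length. The medians fall from 0.89 to -0.28 in IM1, and Folr2, Cbr2, Fcna, Lyve1 and Ednrb lie above the grey boxes there, while in IM3 the medians stay between -0.02 and 0.08.

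Compared with AM, the genes other than Mrc1 had few or no reads in AM. All 10 were higher in IM1 than in AM, where 33.1% of all genes tested were, and all 10 were higher in IM2 than in AM, beside 34.3%. In IM3, 9 were higher than in AM, beside 32.4% of all genes, and Mrc1 was lower, beside 25%. AM held 42081 reads of Mrc1 in all and 0 to 62 reads of each of the other 9 genes, with the most for Stab1 and Cbr2. The ratio to AM, with a 95% exact binomial interval on the counts, was 16100 (7790 to 39900) for F13a1 in IM1. For IM2 this F13a1 ratio was 13600 (6610 to 33900), and IM3 had 516 (250 to 1290). Cbr2 had a ratio of 901 (656 to 1270) in IM1. The Cbr2 ratio was 532 (388 to 752) for IM2 and 24 (17.4 to 34.1) for IM3. Ednrb, with no read in AM, was at least 2930-fold higher in IM1, at least 1740-fold higher in IM2 and at least 30.0-fold higher in IM3, taking 3 counts over the AM libraries together as the limit.

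For Lyve1 and Timd4, which had 1 read each in AM, the intervals were wide. Lyve1 was 26100 times as abundant in IM1 as in AM (4690 to 1030000) and 335 times in IM3 (59.7 to 13300). Timd4 was 3650 times as abundant in IM1 (654 to 144000) and 116 times in IM3 (20.4 to 4620). The 9 genes other than Mrc1 were thus lower in IM3 than in IM1 but above AM there, by the edgeR test as well, and the smallest difference from AM was that of Fcna, with a log2 fold change of 3.68 ± 0.56 (adjusted p 3.58e-05). The Mrc1 difference between IM3 and AM was -0.42 ± 0.13 (adjusted p 0.0113), and it was -0.37 ± 0.15 (0.0549) without IM3 replicate A. Over all genes tested, the median change against AM was 0.09 to 0.12 on the log2 scale.

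Divided by exonic length, so that genes could be set against each other, Folr2 was first in IM1, with 1151 ± 597.5 CPM per kb (SD, n = 3). F13a1 (668.9 ± 136.7) and Cbr2 (642.4 ± 296.5) followed, and neighbours among these 3 overlapped in their libraries. Mrc1 came next with 337.3 ± 54.3 CPM per kb, below every Cbr2 library. Lyve1, Stab1, Cd163 and Fcna stood at 250.4, 229.7, 213.0 and 192.8 CPM per kb and overlapped each with the next. Ednrb (53.1) and Timd4 (40.9) were lowest and overlapped with each other. IM2 began in the same way with Folr2 (709.2), F13a1 (573.4), Cbr2 (364.6) and Mrc1 (346.0 CPM per kb) and ended with Ednrb and Timd4. In IM3 the order was different: Mrc1 was first with 117.1 ± 6.4 CPM per kb, Stab1 was next with 78.1 ± 7.9, and Folr2, F13a1, Cd163 and Cbr2 lay between 22.4 and 16.3 CPM per kb. In AM, Mrc1 stood at 156.9 ± 4.7 CPM per kb and no other marker had a mean above 0.678. Division by length did not remove the higher level of short genes in IM1 replicate A, where Folr2 stood at 1837 and Cbr2 at 974.7 CPM per kb. In IM1 replicates B and C, Folr2 stood at 748.6 and 866.2 CPM per kb, beside 629.5 and 821.0 for F13a1.

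Across the 9 interstitial libraries the 10 profiles were compared by the root mean square difference of log2 CPM after each gene's mean was removed, a description over libraries that share depth and preparation. Mrc1 and Stab1 were the closest pair, at 0.2. Timd4 and Cbr2 (0.21), Folr2 and Cbr2 (0.25), Folr2 and Fcna (0.26), Cbr2 and Fcna (0.28) and Lyve1 and Ednrb (0.3) came after them. Cd163 was about as far from Mrc1 (0.98) as from Folr2 (0.95), and Stab1 and Ednrb were the farthest apart (2.29).

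**Figure D4:**
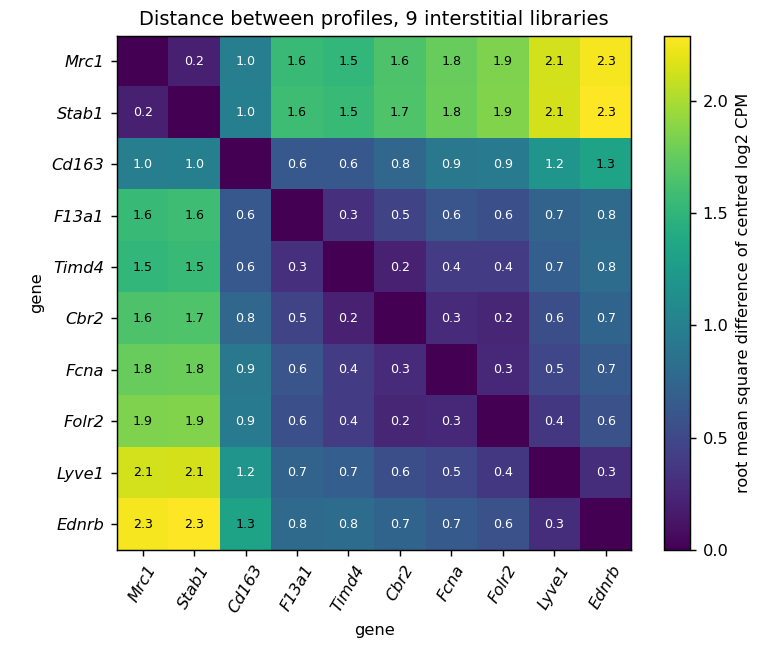
Root mean square difference of centred log2 CPM between each pair of genes over the 9 interstitial libraries, with genes on both axes and darker cells closer. Mrc1 and Stab1 form a pair at 0.2, and Cd163 lies 0.98 and 0.99 from them. The other 7 genes lie 0.63 to 1.33 from Cd163 and within 0.81 of each other.

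Of 9893 other genes with at least 5 CPM on average in these libraries, the one nearest to the mean profile of the 10 was Btnl2 (0.16), a butyrophilin-like gene, with 43.3 CPM in IM1, 33 in IM2 and 1.89 in IM3. Cd38 (0.22), an ecto-enzyme that consumes NAD, was next, with 249 CPM in IM1, 243 in IM2 and 10.9 in IM3. The cytokine gene Tslp (0.36), Sema6a (0.36), the lectin gene Clec10a (0.42), Ltc4s (0.43), Pla2g2d (0.44), the gelatinase gene Mmp9 (0.44), Siglech (0.45) and Nxpe5 (0.48) followed. The nearest profiles of single genes were Ralgds and Slc35g1 for Mrc1, Itsn1 and Lrp6 for Stab1, Nxpe5 and Fam43a for Cd163 and Cd38 and Mmp9 for F13a1. For the genes highest in IM1 replicate A they were Cd55 and Cd209d for Lyve1 and Ednrb, and Ccl24 and Ccl8 for Folr2. Cbr2 had Ccl24 and Tslp, Fcna had Tslp and Cd55, and Timd4 had Btnl2 and Cd38.

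Since all 10 genes were higher in IM1 and IM2 than in IM3, their promoters were read for words of 3 macrophage transcription factor families in RefSeq windows on GRCm38.p6, which held 9 of the 10 genes but not Lyve1. The 250 bases before the RefSeq start nearest the deposited gene start were searched on both strands for GAGGAA, a core word of PU.1-type Ets factors, TGCTGA, a Maf half-site word, and TGANTCA, the AP-1 word. No 2 of these words overlapped in the windows shown. GAGGAA was in 5 of 9 windows (Mrc1, Stab1, F13a1, Cbr2 and Fcna) and in 23.3% of the 32851 windows of the table. TGCTGA was in 5 of 9 (Folr2, Stab1, Timd4, Fcna and Ednrb) and in 16.1% of all windows, and the AP-1 word was in 1 of 9 (Folr2) and in 6.75%. The Cd163 window held none of the 3. The 200 bases before the start are printed below, on the strand of the gene, for the pair that stayed high in IM3 (Mrc1 and Stab1) and for 3 genes that did not (Folr2, Timd4 and Fcna). Capitals mark the words on either strand, and a match is a description of letters, not a binding site.
Mrc1, chr2:14229214-14229413, plus strand: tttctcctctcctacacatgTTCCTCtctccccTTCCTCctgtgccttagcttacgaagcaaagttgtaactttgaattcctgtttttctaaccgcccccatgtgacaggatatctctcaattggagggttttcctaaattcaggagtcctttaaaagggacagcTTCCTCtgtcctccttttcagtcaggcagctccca
Stab1, chr14:31168642-31168841, minus strand: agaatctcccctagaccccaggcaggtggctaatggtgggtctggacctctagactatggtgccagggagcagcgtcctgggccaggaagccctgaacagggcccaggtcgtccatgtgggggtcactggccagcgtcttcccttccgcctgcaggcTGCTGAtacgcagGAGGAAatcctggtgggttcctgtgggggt
Folr2, chr7:101845332-101845531, minus strand: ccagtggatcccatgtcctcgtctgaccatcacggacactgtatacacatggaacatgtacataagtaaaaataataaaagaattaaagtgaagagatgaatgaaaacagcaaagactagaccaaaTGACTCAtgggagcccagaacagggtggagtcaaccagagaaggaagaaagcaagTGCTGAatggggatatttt
Timd4, chr11:46810599-46810798, plus strand: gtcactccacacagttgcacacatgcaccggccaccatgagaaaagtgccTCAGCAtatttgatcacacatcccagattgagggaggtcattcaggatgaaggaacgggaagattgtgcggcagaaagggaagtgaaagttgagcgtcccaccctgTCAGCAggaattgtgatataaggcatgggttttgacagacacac
Fcna, chr2:25627975-25628174, minus strand: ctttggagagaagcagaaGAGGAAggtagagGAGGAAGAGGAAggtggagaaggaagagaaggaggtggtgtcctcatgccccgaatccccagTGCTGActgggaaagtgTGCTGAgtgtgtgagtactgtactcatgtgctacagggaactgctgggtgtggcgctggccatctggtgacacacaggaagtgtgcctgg

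Both Mrc1 and Fcna had 3 copies of GAGGAA, those of Mrc1 at 180, 167 and 35 bases before the start and those of Fcna at 182, 169 and 163. Stab1 had GAGGAA at 30 bases and TGCTGA at 43 bases before its start. The Maf half-site word was at 150 and 44 bases in Timd4, at 107 and 90 in Fcna and at 19 in Folr2, whose AP-1 word lay at 74. The words did not divide the genes by their level in IM3.

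Most of a list of other CD206-high tissue macrophage genes, chosen with earlier results of these data known, moved with the 10 genes. Of these 24 genes, 21 were higher in IM1 than in IM3, beside 12.7% of all genes tested. In IM2, 21 were higher than in IM3, beside 6.49% of all genes. None was lower in either comparison, and the medians were 3.03 and 2.44 log2 units. The largest folds were those of the C-type lectins Cd209f, at 294 ± 126 CPM in IM1, 268 ± 75.3 CPM in IM2 and 1.86 ± 0.0891 CPM in IM3 (SD, n = 3), and Cd209g, at 126 ± 62.9, 124 ± 36.5 and 1.01 ± 0.0575 CPM. Both belong to a family of related genes, and reads that map to several of them would be left unassigned and not counted. Mgl2 and Hpgd were among those that did not pass in either comparison. Between IM1 and IM2 1 of the 24 was called, beside 1.71% of all genes tested. This was the complement receptor gene Vsig4, with 83.2 ± 21.6 CPM in IM1, 16.8 ± 6.21 CPM in IM2 and a log2 fold change of 2.3 ± 0.28 (edgeR adjusted p 0.00041). Most of the 16 genes of MHC class II-high macrophages went the other way. The list holds the MHC class II genes Cd74, H2-Aa, H2-Ab1, H2-Eb1 and H2-DMb1, their regulator Ciita, and Itgax, which encodes the CD11c of the label. The counts for IM1 below were therefore set in part by the sort. In IM1 14 were lower than in IM3, beside 11.7% of all genes tested, and 11 were lower than in IM2, beside 1.22% of all genes. In IM2 13 were lower than in IM3, beside 4.94% of all genes. None of the 16 was called higher in these comparisons, and Cd86, which encodes a costimulatory ligand, was not called, at 342 ± 36 CPM in IM1, 312 ± 23.4 CPM in IM2 and 297 ± 13.8 CPM in IM3 (SD, n = 3). Among them H2-Eb1, whose protein belongs to the gated MHC class II, stood at 241 ± 35.2 CPM in IM1 and 4830 ± 296 CPM in IM2.

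The pathways around each marker were counted with the marker itself. Of all genes tested, 12.7% were higher and 11.7% lower in IM1 than in IM3. In IM1 against IM3 some held genes of both directions, while the folate, carbonyl reductase and ficolin lists held none that was lower. Of 8 genes of hyaluronan binding and turnover that could be tested, 5 were higher and 1 lower in IM1 than in IM3. The lower one was Cd44, the main leukocyte hyaluronan receptor, with 187 ± 39.4 CPM in IM1 and 491 ± 48.9 CPM in IM3 (SD, n = 3 each), opposite in direction to Lyve1. Of 14 haemoglobin and haem genes, 9 were higher in IM1 than in IM3 and 1, Nfe2l2, was lower. Against AM the same list had 4 higher and 6 lower in IM1, beside 33.1% of all genes called higher and 25.7% called lower. The largest fall was that of Hmox1, haem oxygenase 1, with 218 ± 38.2 CPM in IM1 and 775 ± 159 CPM in AM. Of 14 folate genes, Folr2 and 3 others were higher in IM1 than in IM3, among them the folate transporter gene Slc46a1 with a log2 fold change of 1.03 ± 0.19 (edgeR adjusted p 0.000784).

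Phosphatidylserine recognition split in 2, with 3 of 11 genes higher and 4 lower in IM1 than in IM3, beside 12.7% and 11.7% of all genes. Gas6, the bridging ligand of the TAM receptors, went with Timd4, at 1650 ± 162 CPM in IM1, 1250 ± 177 CPM in IM2 and 145 ± 8.41 CPM in IM3 (SD, n = 3). Its receptor gene Axl went against it, at 407 ± 135 CPM in IM1, 750 ± 106 CPM in IM2 and 1450 ± 38 CPM in IM3, and so did Havcr2, which encodes TIM-3, at 68.0 ± 10.4, 100 ± 15.1 and 221 ± 8.09 CPM. Of the mannose receptor family, Mrc2 was lower in IM1 than in IM3, at 0.512 ± 0.457 CPM in IM1 and 3.34 ± 0.835 CPM in IM3, and Ly75 was an AM gene, with 0.625 ± 0.839 CPM in IM1 and 338 ± 17.7 CPM in AM.

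Among 15 coagulation and transglutaminase genes, 6 were higher and 4 lower in IM1 than in IM3, beside 12.7% and 11.7% of all genes. F7, coagulation factor VII, was high in AM, at 1160 ± 77.4 CPM. It stood at 11.4 ± 0.657 CPM in IM1, 5.47 ± 1.84 CPM in IM2 and 0.716 ± 0.17 CPM in IM3. The alveolar macrophage genes Chil3, Car4, Fabp4, Marco, Krt79 and Ear1 fell in the same order over IM1, IM2 and IM3. Siglecf and Pparg rose in that order, and Ear2 was highest in IM2. Whether AM RNA contributed to F7 in the interstitial libraries was not tested. All 4 testable genes of the ficolin and lectin pathway list were higher in IM1 and in IM2 than in IM3, beside 12.7% and 6.49% of all genes. They included the complement gene C4b, which has a close copy (C4a), and reads that map to both would be left unassigned. C4b stood at 935 ± 238 CPM in IM1, 1120 ± 82.1 CPM in IM2 and 24.6 ± 7.31 CPM in IM3. The lectin genes Fcnb, Mbl1 and Mbl2 had no read in any library. Of 7 carbonyl reductase genes 5 were higher in IM1 than in IM3, and Cbr2 had the largest fold. In the endothelin axis, Ednrb was the only one of 6 genes higher in IM1 than in IM3, Mme was lower, and the ligand genes Edn2 and Edn3 had at most 13 reads in a library.

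Several of the markers are also used for other cells, and most genes listed for the cells named below were low in the interstitial libraries. The 6 lymphatic endothelial genes, which mark the other main LYVE-1-positive cells of the lung, summed to 5.33 to 13 CPM in IM1, 6.38 to 8.69 CPM in IM2, 4.03 to 6.70 CPM in IM3 and 8.06 to 12.7 CPM in AM (unscaled CPM), with Reln at 0 in IM1 and IM3 and Ccl21a, Mmrn1 and Reln at 0 in AM. Lyve1 itself stood at 310.9 to 1014 scaled CPM in the IM1 and IM2 libraries. In the IM3 libraries it stood at 6.77 to 10.34 scaled CPM, close to the lymphatic sum there. The 8 blood endothelial genes, relevant to Stab1 and Ednrb, summed to 46.6 to 93.6 CPM in IM1, 40.5 to 52.7 CPM in IM2 and 46.1 to 54.9 CPM in IM3. AM had 591 to 734 CPM, nearly all from Car4, with Cdh5, Cldn5, Kdr, Tek and Tie1 at 0. In IM3 these 5 genes averaged 2.93 (Cdh5) to 5.77 CPM (Tek), and Ednrb stood at 1.39 to 3.30 scaled CPM. The part of endothelial RNA in the IM3 levels of Lyve1 and Ednrb, and so in their excess over AM, was not tested. IM1 replicate B had the most of the 8 blood endothelial genes and also the most Stab1, and their part in its level was not tested.

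The 6 platelet genes, relevant to F13a1, summed to 5.58 to 7.72 CPM in IM1, 6.07 to 8.07 CPM in IM2 and 5.17 to 8.48 CPM in IM3, and Gp6 was at 0 in all populations. The 6 classical monocyte genes summed to 219 to 303 CPM in IM1, 460 to 642 CPM in IM2 and 1080 to 1310 CPM in IM3. Most of this came from Ccr2 in IM2 and IM3, and from Chil3 in IM1. Among airway genes, relevant to Cbr2, the club cell gene Scgb1a1 averaged 6.42 CPM in IM1, 4.49 CPM in IM2 and 1.13 CPM in IM3, so it was low but ordered as Cbr2 was, and its part was not tested. The whole airway list of 6 genes summed to 216 to 313 CPM in IM1, 161 to 190 CPM in IM2 and 309 to 389 CPM in IM3, most of it from Tppp3, with Foxj1 at 0 in IM3. The 5 genes of serous cavity macrophages, another TIM-4-positive population, summed to 4.12 to 11.9 CPM in IM1, 1.53 to 3.02 CPM in IM2 and 1.53 to 2.62 CPM in IM3.

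Counting was without regard to strand, so overlapping genes limit 3 of the 10 values. Mrc1 contains Mir511 on its own strand, Stab1 overlaps Nt5dc2 on the opposite strand, and Fcna overlaps its antisense gene Fcnaos. These partners had at most 18, 707 and 13 counts in any library.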

How the data were processed

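RNA was amplified with the SMART-Seq v4 kit, sheared and sequenced on Ion Proton chips, per the labels' protocols. The authors aligned reads with STAR 2.5.1b to mm10, per the submitters' processing notes, and the deposited counts per gene were made with featureCounts v1.5.0-p1 on Ensembl 78 gene models without regard to strand, per the file headers. Counts of the 38 runs were summed to 12 libraries of 3 to 5 runs. The 10 genes and the gene lists were chosen with earlier results of these data known.

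Genes passing filterByExpr of edgeR 4.0.16 (minimum count 10) were fitted over all 12 libraries with TMM scaling, and the quasi-likelihood test was adjusted by Benjamini-Hochberg over all 14095 genes, with calls at 0.05. Alternatives were DESeq2 1.42.0, limma 3.58.1 voom, other scalings and filters, a replicate block and each library left out. The labels name no pairing of replicate letters, and the main fit did not use the letters. Deviations of same-letter libraries correlated at 0.166 to 0.292 over genes in IM1 and IM2 and at 0.143 to 0.189 in IM2 and IM3. In IM1 and IM3 the values were 0.066, -0.122 and 0.165 for letters A, B and C, and with AM they ran from -0.085 to 0.052. These ranges overlap in part, so which populations the letters pair was not settled, and the replicate block is given as an alternative. All 10 genes were named in each comparison, and from each list the called genes with the largest fold changes. Scripts were tested on simulated data.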

Additional observations from a re-analysis of the deposited data

How the results depend on the processing

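Of 1320 combinations of a gene, a comparison and an alternative setting, 1285 kept their direction and their side of the threshold. The counts of 10 genes higher in IM1 and IM2 than in IM3 or AM, and of 9 genes higher in IM3 than in AM, were the same under all 22 settings. In IM3 against AM, the count of genes called lower was 0 to 1 with a library left out, and Mrc1 lost its call without IM3 replicate A. The changes concerned IM1 against IM2, where the main count was 0: 6 genes were called without a filter on low counts, 1 by DESeq2, 4 by limma voom with quality weights, 2 with the replicate block, 6 with the replicate block in a fit on the 2 populations, 1 without the 4 replicate A libraries (these last 2 chosen after seeing the data), and 0 to 5 with a single library left out. Calls over all genes in this comparison numbered 241, with 71 in a fit on the 2 populations and 1904 without IM1 replicate B. They were 941 without a filter, 591 by DESeq2, 934 by voom, 392 with the replicate block and 629 with the block on the 2 populations. IM1 against IM3 had 3445 calls, and 2268 in a fit on the 2 populations. IM2 against IM3 had 1611, and 2654 with the block on the 2 populations.

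In IM1 against IM2, Mrc1 (-0.04) turned to 0.00028 with upper-quartile scaling, 0.07 with voom, 0.02 without the replicate A libraries and 0.1 with length-smoothed offsets. Stab1 (0.03) turned to -0.06 with voom and -0.0014 with the block on the 2 populations. With single libraries left out they ran from -0.13 to 0.09 for Mrc1 and from -0.23 to 0.17 for Stab1. None of these was called, and the cause was not tested. The ratio of the highest to the lowest IM1 library for Folr2 was 2.38 as a mean over runs, and 3 of the 10 nearest genes were shared when AM libraries were added. With 3 libraries in a population, the IM1 replicates' disagreement limits what can be said of IM1 against IM2.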
